A study of Mus musculus with 4 samples.

Results

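The genes examined were 10 genes of vascular endothelium, the cells that line blood vessels: *Pecam1*, *Cdh5*, *Esam*, *Emcn*, *Kdr*, *Flt1*, *Tek*, *Tie1*, *Sox17* and *Sox18*. They were picked by symbol. Every gene probe that carries one of these symbols was taken, which gave 14 of the 39429 gene probes and 10 of the 29924 gene names on the array. All 10 genes were bright enough to be tested, as were 21042 genes in all. Their signal in dissected cochlear ducts served as a measure of the vessels that come with this tissue, in embryos in which *Tbx2* was deleted and in controls.

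On each of 4 two-colour Agilent arrays, RNA of pooled *Sox2-Tbx2LOF* ducts was set against RNA of pooled control ducts, so that 8 independent pools were read. The mutants, of genotype Sox2(creERT2);Tbx2(fl/fl), carry a *loxP*-flanked *Tbx2* and, at *Sox2*, a Cre recombinase that acts only in the presence of tamoxifen, whereas the controls carried Tbx2(fl/n.d.), with the second allele not determined, and were cre-negative by the methods. All embryos were NMRI mice at E14.5 whose dams had received 4 mg tamoxifen by mouth at E12.5, and the spiral ganglion had been taken off the ducts. Arrays 1 and 2 held female pools and arrays 3 and 4 male pools. The mutant pool was read in the dye Cy5 on arrays 1 and 3 and in Cy3 on arrays 2 and 4. Since Cre is driven by *Sox2*, deletion is aimed at *Sox2*-expressing cells, and every pool joined the ducts of many embryos.

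Endothelial cells form the inner lining of all vessels. VEGF acts on them through the receptor tyrosine kinases KDR and FLT1, of which KDR carries most of the growth signal and FLT1 binds VEGF tightly and limits it. TEK, also called TIE2, is the receptor of the angiopoietins and works together with its relative TIE1 in vessel stability. CDH5 (VE-cadherin), PECAM1 and ESAM sit at the contacts between endothelial cells, EMCN (endomucin) is a sialomucin of their surface, and SOX17 and SOX18 are transcription factors of early arteries and of vessel and lymphatic development. In the inner ear, vessels run in the mesenchyme around the duct and supply the lateral wall, where the stria vascularis forms later.

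Each array level below rests on probes of 60 bases. The probes of *Tek* and *Tie1* are shown because these related receptors are read from corresponding stretches of sequence. The *Tek* probe lies on the plus strand at chr4:94540624-94540683 and the *Tie1* probe on the minus strand at chr4:118144132-118144191, in the mm9 build that the file headers name. In the best ungapped alignment 39 of 57 bases were identical, more than in any other of the 91 pairs among the 14 probes, of which the next shared 27. Capitals mark the bases that the *Tek* and *Tie1* probes share in that alignment.
Tek: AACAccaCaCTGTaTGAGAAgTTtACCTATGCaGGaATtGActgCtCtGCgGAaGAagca
Tie1: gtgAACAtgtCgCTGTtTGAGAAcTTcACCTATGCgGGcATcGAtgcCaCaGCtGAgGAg

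The differences are spread over the length of the probes, and how much of the signal of either probe comes from the other gene's RNA was not tested. The probes of *Pecam1* (minus strand, chr11:106540864-106540923) and *Emcn* (plus strand, chr3:137086389-137086448) are shown because these were the members whose mean ratio lay below 0. Neither carries a stretch to be marked.
Pecam1: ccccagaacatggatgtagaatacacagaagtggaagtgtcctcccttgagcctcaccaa
Emcn: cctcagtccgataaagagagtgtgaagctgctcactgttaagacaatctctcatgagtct

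*Kdr* and *Sox17* had 2 probes each and *Flt1* had 3. The brightest tested probe stood for the gene. This probe was well above background in all 8 pools for all 10 genes. The dimmest of these readings was *Tek* in Cy5, still 13.9 times its local background. Every member was thus read in every pool, and none of the markers that define the list was missing. In RNA of whole ducts, fewer endothelial cells and less RNA per endothelial cell cannot be told apart.

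The 4 arrays were alike in brightness, with a median spot signal of 263 to 292 in Cy3 and 496 to 563 in Cy5, and no gene spot was saturated. *Tbx2*, the targeted gene, was lower in the mutant pool of every array, with a mean log2 ratio of -0.12 ± 0.10 (SD, n = 4) that did not pass the test (adjusted p = 0.124; limma with Benjamini-Hochberg adjustment over all genes tested, as for every adjusted p below). An *Esr1* probe was well above background in 4 mutant pools and in no control pool. The recombinase carries a tamoxifen-binding part of an estrogen receptor, and whether this probe reads it rather than mouse *Esr1* was not tested. The other *Esr1* probes on the array were not well above background in any pool. *Xist* and the Y-linked genes matched the labelled sex of all pools. The same-dye arrays resembled each other: across genes the ratios of arrays 1 and 3 had r = 0.68 and those of arrays 2 and 4 r = 0.62, whereas arrays of opposite dye had r between -0.10 and 0.07. A dye term was therefore part of the test for each gene.

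Endothelial transcripts differed little between mutant and control ducts. *Esam* alone among the 10 genes passed the threshold of 0.05 on the adjusted p, and it rose by 1.12-fold. Of all genes tested 5.18% passed, 2.26% as higher and 2.92% as lower, so that 1 of 10 is close to the background. With a minimum fold change of 1.5 as a second criterion no member was called, where 0.442% of all genes were. The mean log2 ratio was above 0 for 8 members, against 51.7% of all genes, and below 0 for *Pecam1* and *Emcn*. In 3 members (*Esam*, *Tie1* and *Emcn*) the ratio had the same sign on all 4 arrays, as did 18.2% of all genes. The median over the members was 0.09, against 0.00 for all genes, and the median on each array was 0.06, 0.04, 0.14 and 0.07. An unadjusted p below 0.05 was reached by 5 members (*Cdh5*, *Esam*, *Emcn*, *Sox17* and *Sox18*), against 20.2% of all genes. The 95% intervals of the 10 genes, each taken alone, ran from -0.21 to 0.27, and the largest change inside any of them was 1.21-fold. The intervals rest on the fit with the dye term and are not a joint limit for the 10 genes. The levels of mutant and control pools overlapped for all 10 genes, and for all but 4.34% of the genes tested.

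**Figure D1:**
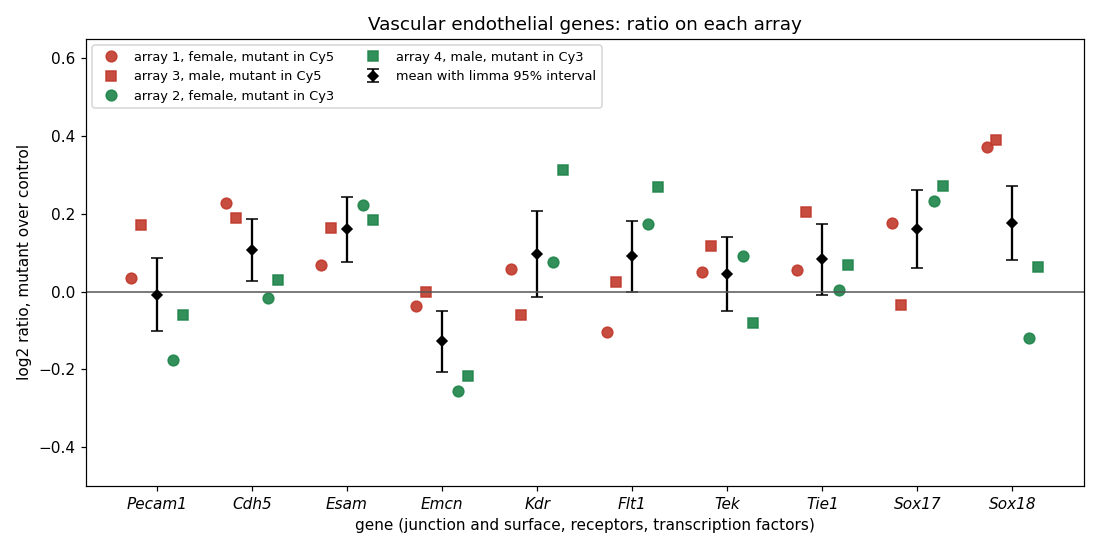
Log2 ratio (mutant over control) of the 10 genes on each array (red, mutant in Cy5; green, mutant in Cy3; circles, female; squares, male) with the mean of 4 arrays and its 95% limma interval (black). All 4 points of *Esam* lie above 0 and all 4 of *Emcn* at or below it. For all genes but *Tek* and *Tie1* the red values do not overlap the green, and the mean gap is widest for *Sox18* and *Flt1*.

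Among the genes of cell contacts and the cell surface, *Esam* gave the steadiest difference. Its log2 signal was 13.58, 13.26, 13.35 and 13.27 in the mutant pools of arrays 1 to 4 and 13.52, 13.04, 13.18 and 13.08 in the control pools. Both pools of array 1 had the highest levels of their group, so the groups overlapped, but on each array the mutant pool was above its control. The ratios were 0.07, 0.22, 0.16 and 0.18, with a mean of 0.16 ± 0.07 (SD, n = 4; limma SE 0.04; adjusted p = 0.0473). This call stood close to the threshold. It was kept under 4 of 14 other settings, with adjusted p from 0.0403 to 0.830 over all 14. Those 4 left the signals and normalization of *Esam* unchanged, with the same ratio of 0.16, and are not separate support. The call was lost in every setting that changed its signals or normalization, and when array 1, 2, 3 or 4 was left out.

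*Cdh5*, the adherens junction cadherin of endothelium, was read at 12.81, 12.61, 12.73 and 12.60 in the mutant pools and at 12.59, 12.63, 12.54 and 12.57 in the controls. The 2 mutant pools read in Cy5 were the highest of the 8 and the other 2 lay among the controls. Its ratio was 0.11 ± 0.12 (adjusted p = 0.129). *Pecam1* was level, with mutant pools at 10.15, 10.10, 10.28 and 10.16, control pools at 10.12, 10.28, 10.11 and 10.21, and a ratio of -0.01 ± 0.15 (adjusted p = 0.940). Its 95% interval was -0.10 to 0.09, and the sign of its mean turned when array 1 or array 2 was left out (0.03 and 0.02).

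*Emcn* was the member furthest below 0. Its mutant pools were at 12.96, 12.70, 13.01 and 12.64 and its control pools at 13.00, 12.96, 13.01 and 12.86. The 2 mutant pools read in Cy3 were the lowest of the 8, and the other 2 were level with the controls. The ratios were -0.04, -0.26, -0.0021 and -0.22, below 0 on 4 of 4 arrays as for 9.31% of all genes, with a mean of -0.13 ± 0.13 (limma SE 0.03, adjusted p = 0.0777). *Emcn* did not pass the threshold, nor did it in any of 14 other settings, in which its ratio stayed between -0.15 and -0.12.

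**Figure D2:**
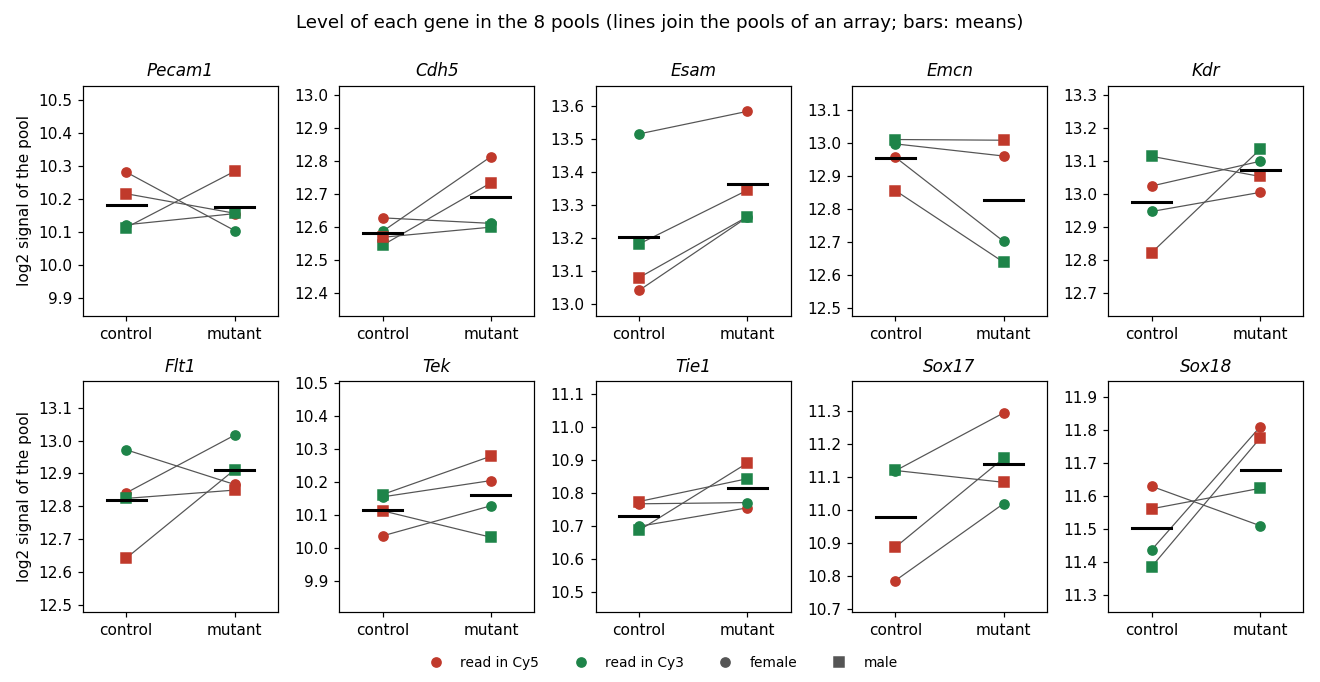
Log2 signal of the 10 genes in the 8 pools, with lines joining the control and mutant pool of an array, black bars at the means (n = 4), red for Cy5, green for Cy3, circles for female and squares for male pools; each panel spans the same range. The groups overlap in every panel, and the lines of *Esam* all slope upward while the pools of array 1 sit above the rest.

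The VEGF and angiopoietin receptors did not pass the threshold. *Kdr* was read at 13.01, 13.10, 13.05 and 13.14 in mutant pools and at 12.95, 13.02, 13.11 and 12.82 in control pools. The lowest control pool, on array 4, gave the highest ratio (0.31), while the other arrays lay between -0.06 and 0.08. The mean was 0.10 ± 0.16 (adjusted p = 0.311). The dimmer *Kdr* probe gave 0.09 ± 0.12, the same direction.

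*Flt1* stood at 12.87, 13.02, 12.85 and 12.91 in mutant pools and at 12.97, 12.84, 12.82 and 12.64 in control pools, a ratio of 0.09 ± 0.16 (adjusted p = 0.248). Its probes ran in opposite ways from array to array. The brightest probe, on the minus strand at chr5:148373791-148373850, gave -0.11, 0.17, 0.03 and 0.27. A probe for another transcript of the gene, at chr5:148446872-148446931, gave 0.19, -0.11, 0.31 and -0.11, so each was high where the other was low, following the dye in which the mutant pool was read. Their means, 0.09 and 0.07 ± 0.22, were nevertheless close. The remaining *Flt1* probe, at chr5:148465976-148466035, was not well above background in any of the 8 pools.

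*Tek* was between 10.03 and 10.28 in the 8 pools, and its ratio of 0.04 ± 0.09 (adjusted p = 0.614) was the smallest above 0 among the members. *Tie1* was at 10.76, 10.77, 10.89 and 10.84 in mutant pools and between 10.69 and 10.77 in control pools. The 2 male mutant pools were the highest of the 8. The ratio was above 0 on 4 of 4 arrays (0.06, 0.0037, 0.20 and 0.07), as for 8.85% of all genes, with a mean of 0.08 ± 0.09 (adjusted p = 0.288).

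The SOX factors had the largest ratios of the list without passing the threshold. *Sox18* was read at 11.81, 11.51, 11.78 and 11.62 in mutant pools and at 11.44, 11.63, 11.39 and 11.56 in controls. The mutant pools read in Cy5 were the highest and the controls hybridised with them, read in Cy3, the lowest. Its ratios were 0.37, -0.12, 0.39 and 0.06, with a mean of 0.18 ± 0.25 (limma SE 0.04, adjusted p = 0.0520). The SE is small beside this SD because the dye term takes up the gap between arrays of opposite dye.

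*Sox17* was at 11.29, 11.02, 11.08 and 11.16 in mutant and at 11.12, 10.79, 11.12 and 10.89 in control pools. On 3 of 4 arrays the mutant pool was above its control. The ratio was 0.16 ± 0.14 (adjusted p = 0.0802). The dimmer *Sox17* probe gave 0.06 ± 0.24, with -0.10, 0.32, -0.20 and 0.20 on the 4 arrays, and its mutant pools were nearly level (10.37 to 10.46) between spread controls (10.09 to 10.59).

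How far a member's ratio depended on the dye was as large as the ratio itself. Over the 10 genes the median size of the dye term was 0.10 on the log2 scale and the median size of the genotype ratio 0.10. Over all genes these were 0.06 and 0.04. With the mutant in Cy5 the mean ratio was above 0 for 7 of 10 members, and with the mutant in Cy3 also for 7, but not for the same genes. *Kdr* (-0.0015) and *Flt1* (-0.04) were at or below 0 in the first orientation and *Pecam1* (-0.12) and *Sox18* (-0.03) in the second, while *Emcn* was below 0 in both (-0.02 and -0.24). *Cdh5*, *Esam*, *Tek*, *Tie1* and *Sox17* were above 0 in both. For *Esam* these means were 0.12 and 0.20. Across the 10 genes, arrays 1 and 3 had r = 0.63 and arrays 2 and 4 r = 0.78, against -0.32 to 0.05 for arrays of opposite dye.

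No difference between male and female pools in the genotype ratio was detected, but the test could find only large ones. It had 1 array for each sex and dye orientation, and fewer residual degrees of freedom than the genotype fit. For the members its limma SE was 0.08 to 0.10, against 0.03 to 0.05 for the genotype ratio. No member passed the limma test of the genotype effect between the sexes at an adjusted p of 0.05, nor did any gene (0 of 21042). At an unadjusted p below 0.05 the count was 0 of 10 members and 2.65% of all genes. The smallest unadjusted p among the members was 0.156, for *Pecam1*, whose ratio was higher by 0.13 ± 0.08 (limma SE) in male pools.

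Further vascular genes, ligands that act on endothelium included, were examined through 7 lists with 69 tested genes. Among them 7 were higher and 2 lower at an adjusted p below 0.05, where 2.26% and 2.92% of all genes were, 49 lay above 0, where 51.7% of all genes did, and the median was 0.04. The calls came mostly from genes of the endothelial surface and its junctions. Of 17 such genes 6 rose, none fell and all 17 lay above 0, with a median of 0.08. *Vwf*, the clotting factor that endothelial cells store, was higher by 0.37 ± 0.19 (adjusted p = 0.0042, above 0 on 4 of 4 arrays). *Cldn5*, the main claudin of endothelial tight junctions, was higher by 0.21 ± 0.04 (adjusted p = 0.0167), and its 4 ratios lay between 0.17 and 0.26 whatever the dye. *Ecscr*, a surface protein of endothelial cells, rose by 0.19 ± 0.05 (adjusted p = 0.0201), and *Mmrn2*, a matrix glycoprotein that binds CD93, by 0.19 ± 0.09 (adjusted p = 0.0498). *Cd93* itself (0.17 ± 0.11, adjusted p = 0.0361) and the secreted vessel factor *Egfl7* (0.17 ± 0.03, adjusted p = 0.0373) complete the 6. The count of 6 was unstable. It was 1 without array 1, 3 without array 2, 0 without array 3 and 1 without array 4, 1 with Agilent's processed signals or with the series value table, and 0 without the dye term. *Vwf* passed in 12 of 14 other settings, *Cldn5* in 7 and the other 4 genes in 3 to 5. The list's median stayed between 0.06 and 0.11 in all 14 other settings.

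Other endothelial receptors had 0 of 11 tested genes past the adjusted threshold in limma and 5 at an unadjusted p below 0.05, with 10 of 11 above 0 and a median of 0.08. The smallest p values were those of *Ptprb*, the phosphatase that acts on TEK (0.36 ± 0.34, adjusted p = 0.115), *Acvrl1*, a receptor of BMP9 and BMP10 (0.12 ± 0.08, adjusted p = 0.123), and *Nrp2*, a coreceptor of VEGF-C and semaphorins (0.10 ± 0.04, adjusted p = 0.146). The list's *Calcrl* was too dim to be tested. Among 12 further transcription factors only *Gata2* passed (0.16 ± 0.05, adjusted p = 0.0429, above 0 on 4 of 4 arrays), as it did in 4 of 14 other settings. RNA of whole ducts does not show in which cells *Gata2* rose. *Lyl1*, a factor of blood and endothelial lineages, gave 0.17 ± 0.13 (adjusted p = 0.0591), and *Sox7*, the relative of SOX17 and SOX18, 0.12 ± 0.19 (adjusted p = 0.128), with the dye pattern of *Sox18* (0.30 and 0.26 with the mutant in Cy5, -0.11 and 0.04 in Cy3).

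Genes of vessel types lay near 0. The 8 arterial genes had a median of -0.01 and no call, and 1 gene reached an unadjusted p below 0.05. *Gja4*, a gap junction protein of arteries, was at 0.14 ± 0.15, the Notch target *Hey1* at -0.08 ± 0.15 and *Gja5* at -0.09 ± 0.13, with adjusted p between 0.228 and 0.346. The 5 venous and lymphatic genes had a median of -0.02 and no call, nor any unadjusted p below 0.05, with *Pdpn* at -0.09 ± 0.16, *Nr2f2*, which sets venous identity, at 0.06 ± 0.05 and *Prox1* at -0.04 ± 0.12. *Pdpn* and *Prox1* are also expressed outside vessels. Of 6 genes of the endothelial barrier, *Mfsd2a*, a lipid transporter of barrier endothelium, was lower (-0.20 ± 0.25, adjusted p = 0.0171), but only in the arrays with the mutant in Cy5 (-0.41 and -0.43, against 0.01 and 0.03), and it passed in 7 of 14 other settings. The median was -0.0022. The efflux pump *Abcb1a* (0.09 ± 0.10) and the thyroid hormone carrier *Slco1c1* (0.07 ± 0.19) did not pass.

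Among 10 ligands that act on endothelium the median was 0.0046, and *Sema3e*, a semaphorin that guides vessels through PLXND1, fell by 0.39 ± 0.16 on the log2 scale (adjusted p = 0.0006). It was lower on 4 of 4 arrays (-0.54, -0.23, -0.53 and -0.27) and passed in 12 of 14 other settings. *Apln* was at 0.11 ± 0.12 and *Angpt2*, the context-dependent ligand of TEK, at -0.08 ± 0.18. No other ligand passed, *Vegfa* and *Angpt1* included (both 0.03).

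**Figure D3:**
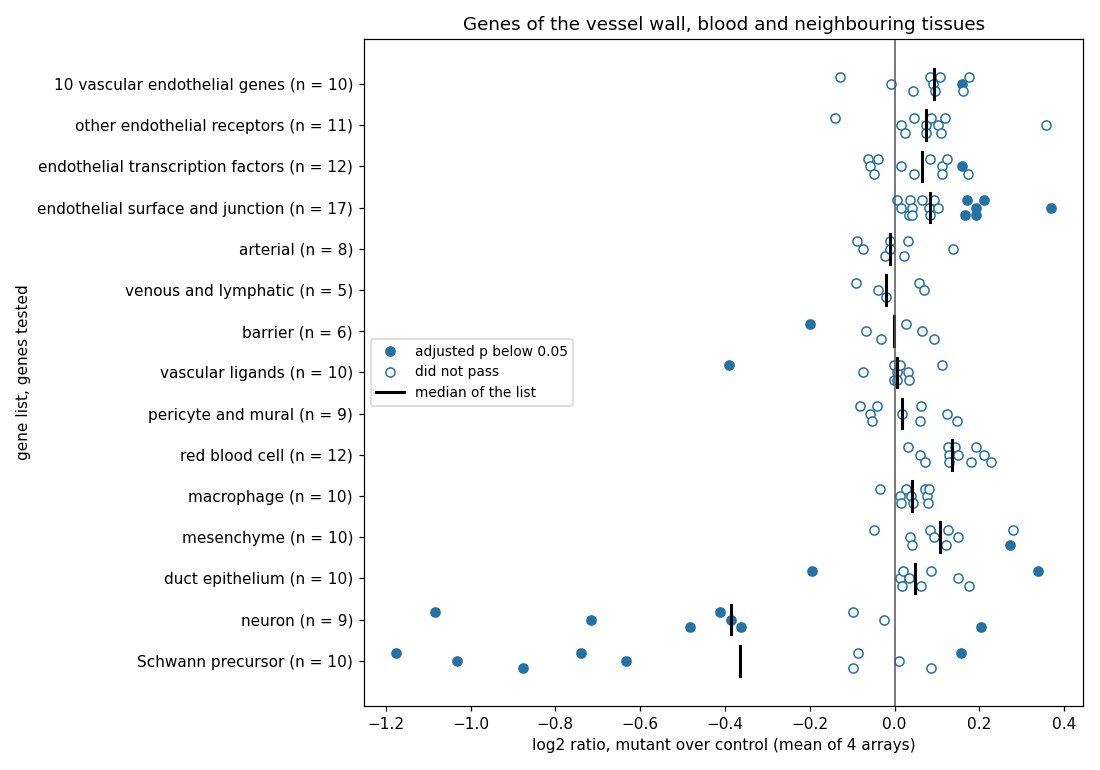
Mean log2 ratio of mutant over control (4 arrays) of each tested gene in 15 lists; filled points passed an adjusted p of 0.05 and black bars mark list medians. The medians of the 10 genes and of the endothelial receptor, transcription factor and surface lists lie above 0 and those of the arterial, venous and lymphatic, and barrier lists just below it, single vascular genes run from *Sema3e* (-0.39) to *Vwf* (0.37), and neuron and Schwann precursor markers reach -1.08 and -1.17.

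Other cells that share the tissue with vessels were read through marker lists. Pericytes and smooth muscle wrap the vessel wall. Their 9 tested markers (*Des* was too dim) had no call in limma, 2 unadjusted p below 0.05 and a median of 0.02, with *Acta2* at 0.15 ± 0.16 and *Tagln* at 0.12 ± 0.11 on top. Red blood cells fill the vessels, and all 12 of their markers lay above 0 with a median of 0.13, none past the adjusted threshold and 6 at an unadjusted p below 0.05. *Epor*, the erythropoietin receptor, was at 0.14 ± 0.08 and the globin *Hba-a1* at 0.19 ± 0.48, and the list's medians on arrays 1 to 4 were 0.14, -0.02, 0.38 and 0.02. The 10 macrophage markers had no call, no unadjusted p below 0.05 and a median of 0.04, with *C1qa* and *Aif1* both at 0.08. In the 10 mesenchyme markers *Col1a1* rose (0.27 ± 0.12, adjusted p = 0.0045), *Col1a2* was at 0.28 ± 0.21 (adjusted p = 0.0665) and the median was 0.11. In the 10 markers of duct epithelium *Gata3* rose (0.34 ± 0.13, adjusted p = 0.0093), *Jag1*, a Notch ligand of the prosensory domain, fell by 0.19 ± 0.08 (adjusted p = 0.0278) and the median was 0.05. Without array 2, 4 mesenchyme and 3 red blood cell markers passed as higher. In that setting 6.07% of all genes passed in either direction, the largest share of any setting. Without array 1, 3 or 4, 1 mesenchyme marker passed each time, and 1, 0 and 0 red blood cell markers.

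Larger shifts with the genotype were found in neuron and Schwann cell precursor markers. Of 9 tested neuron markers 6 fell and 1 rose, with a median of -0.39, and of 10 Schwann precursor markers 5 fell and 1 rose, with a median of -0.37. *Elavl3* fell by 1.08 ± 0.36, *Nefl* by 0.48 ± 0.10, *Fabp7* by 1.03 ± 0.14 and *Foxd3* by 1.17 ± 0.22. The summed level of the neuron list, as a mean of log2 signals centred within each dye, was -0.28 to -0.07 in the mutant pools and 0.07 to 0.28 in the controls. That of the Schwann precursor list was -0.28 to -0.15 and 0.11 to 0.27. In each of the 8 pools all tested markers of both lists stood well above background, whereas *Neurod1* was too dim to be tested. Over the 14 other settings 2 to 7 neuron markers and 5 Schwann precursor markers passed as lower. Whether these markers fell through fewer cells or less RNA per cell was not tested. The paper counts *Fabp7* among genes expressed in the inner compartment. It uses NGFR, whose gene is also on the Schwann precursor list, as a marker of pillar cells. What part these falls had in the small ratios of the endothelial genes was not tested either.

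The same centred score was taken over the 10 endothelial genes to see how the vessel signal varied from pool to pool. It was 0.09, -0.01, 0.07 and 0.0043 in the mutant pools of arrays 1 to 4 and 0.02, -0.06, -0.02 and -0.10 in the control pools. The groups overlapped, and on each array the mutant pool was above its control. The 17 surface and junction genes had scores of 0.01 to 0.09 in the mutant pools and -0.08 to -0.02 in the controls, without overlap. Red blood cell scores were 0.05 to 0.08 and -0.14 to 0.01, also without overlap. The neuron and Schwann precursor scores did not overlap either, while those of all other lists did. Among single genes, whose levels were not centred, 4.34% of those tested did not overlap. How often the score of a list of random genes would not overlap was not tested. Across the 8 pools, of which those on the same array share its hybridisation, the 10-gene score followed that of the other endothelial receptors (r = 0.98), the surface and junction genes (r = 0.89) and the endothelial transcription factors (r = 0.85). Against the remaining vascular lists it had r = 0.49 for arterial genes, 0.34 for ligands, -0.26 for barrier genes and -0.34 for venous and lymphatic genes. It also followed mesenchyme markers (r = 0.95), red blood cell markers (r = 0.72) and duct epithelium markers (r = 0.64). It did not follow macrophage (r = 0.20) or pericyte and mural markers (r = -0.32) in the same way. Its r was -0.36 with neuron and -0.54 with Schwann precursor markers, whose scores part by genotype. Within each genotype, the pools of arrays 1 and 3 had the higher 10-gene, neuron and Schwann precursor scores. Their neuron scores were -0.15 and -0.07 against -0.28 and -0.24 in mutants, and 0.28 and 0.24 against 0.07 and 0.15 in controls. Each r over the 8 pools thus mixes genotype with variation between pools.

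**Figure D4:**
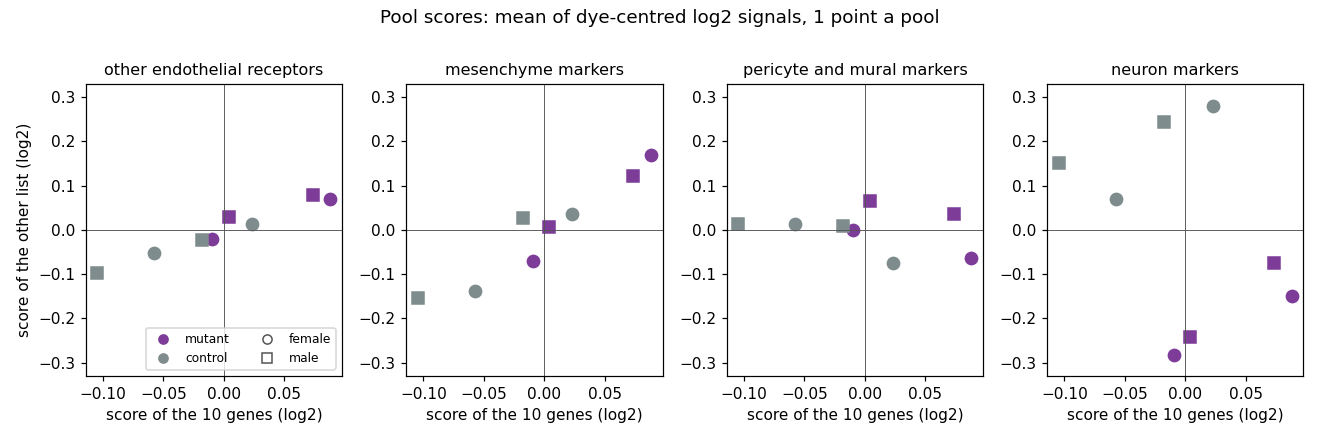
Score of the 10 endothelial genes (x axis, log2) against the scores of other endothelial receptors, mesenchyme, pericyte and mural, and neuron markers (y axes, log2), 1 point a pool (purple, mutant; grey, control; circles, female; squares, male). The pools line up in the receptor and mesenchyme panels, and in the neuron panel they part by genotype.

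The members did not all vary together. Of 45 pairs of members 33 had a correlation above 0 over the 8 pools, with a median r of 0.24. *Esam* with *Sox17* (0.85), *Cdh5* with *Sox18* (0.84) and *Cdh5* with *Esam* (0.84) were the closest, and *Tie1* with *Emcn* (-0.57) the most opposed. Against the mean of the other 9 genes *Cdh5* had r = 0.92, *Sox17* 0.75, *Esam* 0.74, *Sox18* 0.68, *Tek* 0.61, *Flt1* 0.56, *Kdr* 0.33, *Tie1* 0.17, *Emcn* 0.05 and *Pecam1* -0.25. *Pecam1* also varied least, with an SD of 0.04 over the pools, against 0.08 for the typical gene and 0.19 for *Esam*. The 38 compared genes of the receptor, transcription factor and surface lists had a median r of 0.54 with the 10-gene mean. The 29 genes of the ligand, arterial, venous and lymphatic, and barrier lists had a median r of 0.03, and all genes compared -0.06. Mesenchyme markers had a median r of 0.75, above that of the endothelial genes, and red blood cell markers 0.38. The other lists of neighbouring cells lay between -0.43 (Schwann precursor) and 0.25 (duct epithelium). Such co-variation was thus not particular to endothelial genes. The 5 genes most like the mean among 20164 were *Lemd3* (r = 0.99), *Smarcal1* (0.99), *Usp38* (0.98), *5930403N24Rik* (0.98) and *BC048609* (0.98), none of them in an endothelial list and none past the adjusted threshold (adjusted p from 0.201 to 0.560). With 8 pools and this many genes, such high values describe these pools only.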

How the data were processed

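RNA of 8 pools was read on 4 two-colour arrays. The authors scanned them and deposited Agilent Feature Extraction 10.7.3.1 output: intensity (mean spot signal and median local background per dye, not normalized), Agilent's processed intensity, and the log10 ratio of processed Cy5 over Cy3, not used here. The authors also deposited a score table, which holds signed fold changes of mutant over control (median 1 on each array, r = 0.92 to 0.94 with the log2 ratios computed here); its normalization is not stated in the sources used here. The methods give the array as the Whole Mouse Genome Oligo v2, but the headers name a custom design (4 spots a probe). All arrays share a slide and scan, so no such batch could be compared. Positions are those of the files (mm9), and no annotation of that build was used, so exons and UTRs were not assigned.

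Signals were background-corrected (limma 3.58.1 normexp, offset 50), which draws dim ratios toward 0, normalized by loess within arrays and averaged over unflagged spots. A probe was tested if it stood well above background in 4 or more of the 8 channel measurements (27963 probes), with the brightest probe standing for a gene. Pool levels were scaled further by Aquantile, and levels of different probes were not compared. Genes were tested in R 4.3.3 with lmFit and eBayes, with a dye term (2 residual and 5.65 prior degrees of freedom) and Benjamini-Hochberg adjustment over 21042 genes. The steps were also run on data simulated from the same model, which cannot show whether that model holds for these arrays. An SD is over 4 arrays. The number of arrays limits the precision. The methods' SAM test was replaced by the ratio within arrays, since both pools share a hybridisation. The array is thus the pairing, and the block in the channel fit gave the same calls by construction. Correlations are Pearson's r and carry no p. The members and all gene lists were chosen with earlier results of these data known. Named were the 10 members, genes past the threshold or the 3 with the smallest p in vascular lists, the 2 with the smallest p in lists of other cells, and the 5 genes most like the members' mean. *Tbx2* and *Esr1* served as checks, and *Vegfa*, *Angpt1*, *Calcrl*, *Des* and *Neurod1* were named after their values were seen. Figures were drawn with matplotlib.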

Additional observations from a re-analysis of the deposited data

How the results depend on the processing

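The median log2 ratio of the 10 genes was above 0 in all 14 other settings, between 0.07 and 0.12, and moved by less than its SD over the arrays (0.04). The count of members past the adjusted threshold, 1, was 1 without a filter on dim probes, with a filter of all 8 measurements and with the array as a replicate block in the channel fit. It was 0 with median centring, a normexp offset of 10, Agilent's processed signals, the fit without a dye term, channels with no replicate block (unpaired) and the series value table, and 2 (*Esam* and *Sox18*) with the mean over tested probes. Leaving out 1 replicate gave 0 to 1, the 1 being *Sox18* without array 2. Of all genes tested, 214 to 1278 passed, against 1091, with 264 without the dye term, 214 with no replicate block, 414 in the value table, 616 with processed signals, and 411 and 445 without array 1 and array 3. When 1 replicate was left out, the log2 ratio of *Pecam1* ran from -0.042 to 0.026, turning its sign without array 1 (0.026) and array 2 (0.022); no other member turned in any setting. With 3 arrays the fit has 1 residual degree of freedom, and the cause of each lost call was not tested. The signal of every standing probe was at least 13.9 times its local background.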
